A study of Mus musculus with 11 samples.

Results

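The probes described here gave a signal in nuclear RNA of both cell types and in the hnRNP A1 immunoprecipitate (IP) of HuR-containing cells, but not in the IP of HuR-lacking cells. Of the 45281 probes on the array, 103 met the rule: a detection p-value of at most 0.01 on all 5 arrays of nuclear RNA and all 3 arrays of HuR WT IP, and above 0.01 on all 3 arrays of HuR KO IP. The detection p-value gives the place of a signal among the negative controls on that array. On the other side of the rule, 88 probes were detected in the HuR KO IP and not in the HuR WT IP, 97 were in nuclear RNA and in no IP, and 11028 were detected on all 11 arrays.

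The cells were mouse embryonic fibroblasts (MEFs), which are connective tissue cells grown in culture from embryos, either HuR WT or HuR KO. The 4 groups were nuclear RNA of HuR WT (2 arrays), nuclear RNA of HuR KO (3 arrays), and IP RNA of HuR WT and of HuR KO (3 arrays each). Nuclear RNA was the input of the IP reaction, no cell was treated, and the IP used a mouse monoclonal antibody against hnRNP A1. By the methods, HuR KO cells grew more slowly than HuR WT cells, and the number of embryos or isolates behind each culture is not given in the sources at hand. The labels only number the replicates, which the methods call biological, and p-values measure the spread between them. No array of the IgG control IP was analysed here, as the paper reports that these control IPs gave too little RNA for arrays. Binding to antibody or beads was therefore not measured probe by probe beside these values.

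HuR is an RNA-binding protein of the ELAV family that recognises AU- and U-rich stretches, mainly in introns and in the untranslated ends of messages, and is best known for protecting mRNAs from decay. hnRNP A1 is an abundant nuclear protein that coats nascent transcripts, takes part in the choice of splice sites and moves between nucleus and cytoplasm. Both proteins sit on common nuclear RNA-protein particles, and an RNA that comes down with hnRNP A1 need not touch the antibody's target directly. The files give probe identifiers alone, and they do not pair them with genes or sequences. The genes behind the 103 probes, HuR's own probe and the fibroblast markers could therefore not be looked up, and the probes are described by their signal.

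The 3 arrays of HuR KO IP stood apart from the other 8 before any probe of interest was considered. Over the 21088 probes detected on no array (detection p-value above 0.05 on all 11), intensities correlated across probes with a Spearman rho of 0.47 to 0.64 between pairs of the other 8 arrays. Between a HuR KO IP array and one of the others, rho was only 0.23 to 0.34, and among the 3 HuR KO IP arrays it was 0.40 to 0.41. The interquartile range of these undetected probes was 6.77 to 6.99 intensity units on the HuR KO IP arrays and 7.50 to 11.7 on the others. Since these 3 arrays are the whole HuR KO IP group, the behaviour of the arrays near background and the absence of HuR cannot be told apart in this group. The comparisons of nuclear RNA and of the HuR WT IP, which carry the tests here, use none of these arrays in their contrasts, and leaving them out of normalization and fit gave 9 in place of 8 calls in nuclear RNA.

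**Figure D1:**
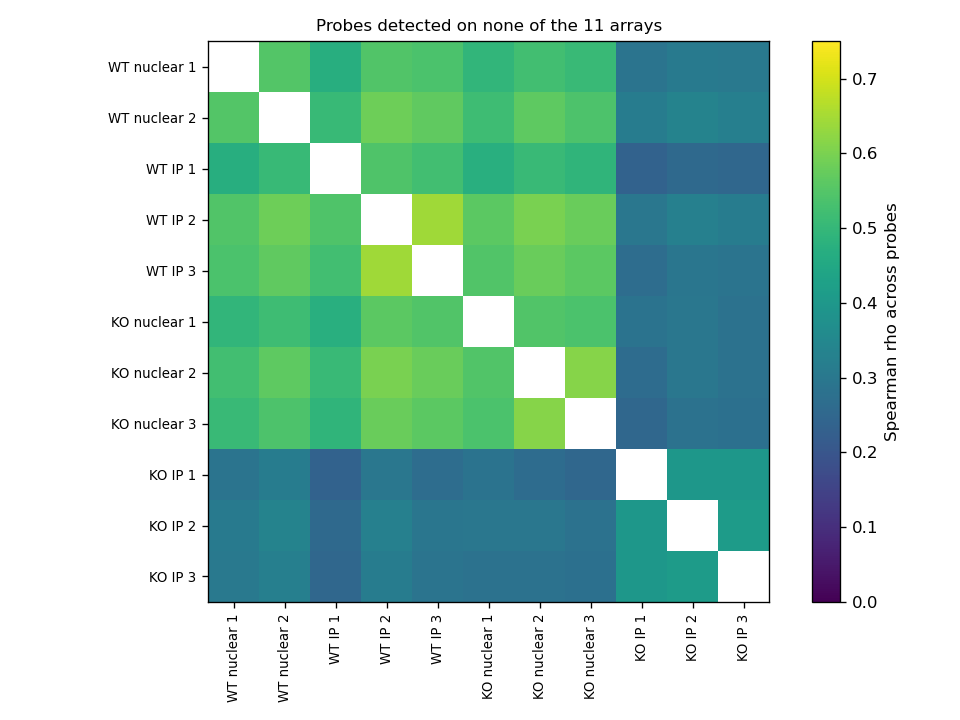
Spearman rho across the 21088 probes detected on none of the 11 arrays, for each pair of arrays (rows and columns are arrays, colour gives rho). The 3 HuR KO IP arrays form a block with rho of 0.40 to 0.41 among themselves and 0.23 to 0.34 with the other 8 arrays, which reach 0.47 to 0.64 with each other.

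Most of the 103 probes were dim where they were detected. Their median deposited intensity was 44.1 and 48.7 in HuR WT nuclear RNA, 39.0, 71.7 and 60.7 in HuR WT IP, and 40.5, 63.5 and 53.0 in HuR KO nuclear RNA. In the HuR KO IP the medians were 5.45, 8.39 and 7.09, below the lowest detected intensity of those arrays, which was 14.7 to 18.0. On the other 8 arrays the lowest detected intensity was 22.2 to 46.8, so the 103 probes lay a short way above the limit on 8 arrays and below it on 3. For 70 of the 103, no array reached an intensity of 100, and the highest value of the 103 on any array was 1709, reached by 1 probe in HuR WT nuclear RNA.

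Normalization left this pattern, which the rule had chosen, in place. Normalized log2 medians of the 103 probes were 5.66 to 6.17 on the 8 arrays where the rule required detection and 4.78 to 4.94 on the HuR KO IP arrays. The rank among all probes of the array fell too, from a median percentile of 69.6 to 73.7 on the 8 arrays to 54.6 to 59.6 in the HuR KO IP. The rule took probes detected on the 8 arrays and undetected in the HuR KO IP, which largely set the direction of both falls. The lower level and rank are therefore a description of the chosen probes and not a separate finding. Across the 103 probes, levels correlated at a Spearman rho of 0.05 to 0.78 between pairs of the 8 arrays (median 0.36) and at -0.05 to 0.40 between them and the HuR KO IP (median 0.08). The points of these correlations share the array, and a narrow range of levels. Within a group, the SD of a probe between replicates had a median of 0.226 log2 units.

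**Figure D2:**
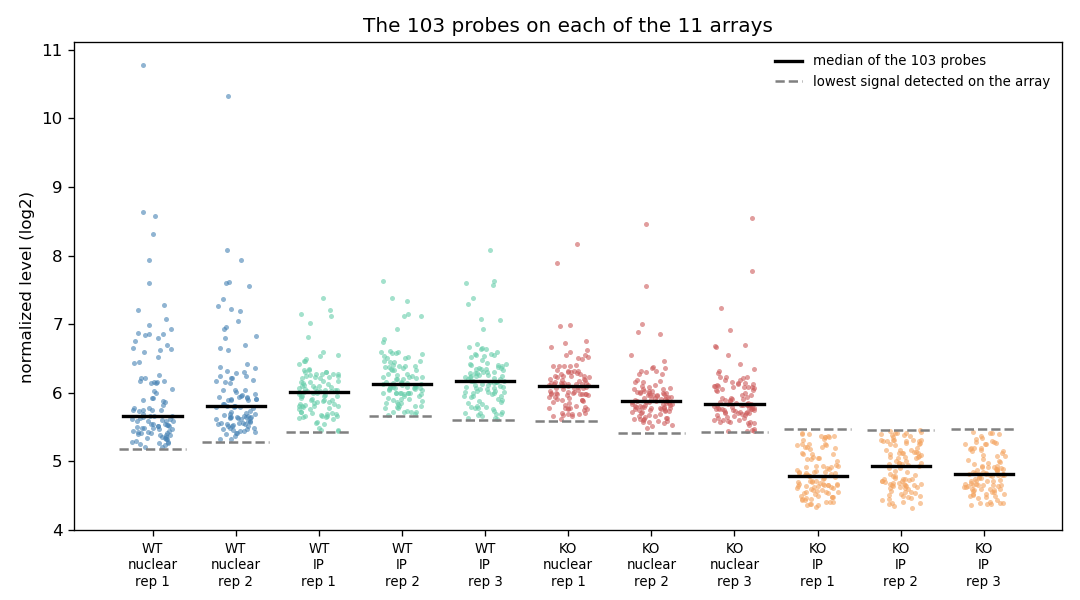
Normalized log2 level of each of the 103 probes (points) on each of the 11 arrays, with the median of the 103 (black bar) and the lowest signal detected on that array (dashed line). Medians lie at 5.66 to 6.17 on 8 arrays and at 4.78 to 4.94 on the HuR KO IP arrays, where every point is under the dashed line because the rule chose it so.

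How far inside the rule a probe lay varied widely. The lowest detection p-value that a probe reached in the HuR KO IP had a median of 0.0427. At the edge, 4 of the 103 reached 0.0107, the next step above the limit. On the outer side, 106 further probes missed the rule by 1 HuR KO IP array alone, and 9 of them did so at 0.00962. With a limit of 0.05 in the HuR KO IP, 50 of the 103 were left, 27 were left at 0.1 and 15 at 0.2. Detection at 0.001 or below on all 8 other arrays held for 7, and 2 met both the 0.05 and the 0.001 limit.

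Whether the nuclear pool itself was smaller in HuR KO cells was asked first. Of the 103 probes, 8 were lower in HuR KO nuclear RNA, none was higher and 95 were not called (limma, adjusted p under 0.05 and over 2-fold). Among all 16045 probes tested, 6.35% were called lower and 5.48% higher, and among the 12475 probes detected on all 5 nuclear arrays, as the rule demands, these shares were 3.85% and 5.12%. A probe whose nuclear level fell below detection in HuR KO cells could not enter the 103. For only 21 of the 103 was the HuR WT nuclear level high enough for a 2-fold fall to stay above the lowest detected level of the HuR KO nuclear arrays. For the other probes the rule itself left no room for a call as lower. It set no upper limit on HuR KO nuclear levels, so a call as higher was open to all. The 8 make up 7.77% of the 103, near the share among all probes tested, and the count is not read as particular to these probes. The methods' t-test, with the same thresholds, called 0 of the 103 lower and 1.28% of all probes. Without further background correction limma called 4 of the 103 lower, against 5.85% of all probes tested. It also called 2 higher, for which the share over all probes is not given here. Nuclear extracts are bulk samples, in which fewer cells making an RNA and less RNA per cell cannot be told apart.

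Most of the 103 had slightly higher values in HuR KO nuclear RNA, by amounts that mostly did not pass the test. The lowest detected level was also higher there, at 5.59, 5.41 and 5.42 on the HuR KO nuclear arrays against 5.18 and 5.28 on the HuR WT nuclear arrays. The rule holds every probe above these levels. For some probes the HuR WT nuclear mean lay under the mean of the HuR KO levels, so a higher value in HuR KO was fixed by the rule. Such probes are counted among those above 0. For the other probes, the part of these levels in the difference was not tested. The median difference, HuR KO minus HuR WT, was 0.20 on the log2 scale (range -2.17 to 0.95), with 70 probes above 0 and 33 below. It was 0.01 over all probes tested, 0.05 over the probes detected on all 5 nuclear arrays and 0.22 over the 97 in no IP. With median scaling in place of quantile normalization, the median of the 103 was 0.09. All 3 HuR KO arrays lay above both HuR WT arrays for 38 probes, or 36.9%, against 25.7% of all probes tested. All 3 lay below for 19 probes, or 18.4%, against 24.7%, and the arrays overlapped for 46. Among the probes detected on all 5 nuclear arrays, 27.8% lay above and 21.5% below. Among the 97 in no IP these shares were 35.1% and 11.3%, so the share above is not particular to the 103. Without the fold threshold, 9 were lower (background 9.88%) and 6 were higher (background 9.6%) at an adjusted p under 0.05 by limma. At an unadjusted p under 0.05, 15 probes were lower and 15 higher by limma, where 16.6% and 16.5% of all probes tested were. The methods' t-test gave 10 and 16 for the 103. The limma shares do not apply to that t-test, its own are not given here, and its counts are not read.

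The 8 probes called lower in nuclear RNA held 6 of the 10 probes with the highest level in the HuR WT IP and 2 of the other 93, which stood at ranks 28 and 44. Room for a 2-fold fall under the rule existed for all of these 10 and for 11 of the other 93. The rule thus ties a nuclear call as lower to a high level, and the split is a description only. The 8 fell by 2.46- to 4.51-fold in nuclear RNA, with adjusted p-values of 0.000178 to 0.0294 (limma), and for all 8 each HuR KO nuclear array lay below both HuR WT arrays.

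The brightest probe in the HuR WT IP read 7.38, 7.63 and 8.08 there on the log2 scale, and 5.23, 5.09 and 4.60 in the HuR KO IP. In nuclear RNA it read 8.31 and 7.94 in HuR WT and 6.59, 5.76 and 5.97 in HuR KO. In the IP the groups did not overlap, as for all 103 probes, which the rule chose in this way. In nuclear RNA the HuR KO arrays lay below both HuR WT arrays, as for 24.7% of all probes tested. The nuclear difference was -2.01 (95% interval -2.68 to -1.35, limma adjusted p = 0.00115).

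The largest nuclear fall was that of ILMN_2597827, from 8.58 and 7.27 in HuR WT to 5.77, 5.67 and 5.82 in HuR KO, a difference of -2.17 (SE 0.469, limma adjusted p = 0.00927). Its HuR WT IP arrays read 6.03, 6.39 and 7.57, and its HuR KO IP arrays 4.55, 5.35 and 5.27. Both HuR WT groups were spread over more than 1 log2 unit, and without HuR WT nuclear replicate 1 the nuclear difference was -1.52 and no longer called.

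ILMN_1246153 was the most abundant of the 103 in nuclear RNA, at 10.78 and 10.33 in HuR WT and 8.16, 8.47 and 8.55 in HuR KO (difference -2.16, SE 0.391, limma adjusted p = 0.00354). In the IP it was at 5.45, 6.24 and 7.07 in HuR WT and 5.31, 5.11 and 4.68 in HuR KO. This RNA was thus high in both nuclear pools and lower in both IPs. In the HuR WT IP, replicate 1 lay just above the lowest detected level of its array (5.43). Replicates 2 and 3 lay further above theirs (5.67 and 5.60), and the 3 arrays were widely spread (SD 0.81). The mean level in the HuR WT IP was 4.31 log2 units below that in HuR WT nuclear RNA.

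How far the nuclear difference could match the loss from the IP was then set out probe by probe. The fall in the IP itself was fixed by the rule and was not tested. The HuR KO IP signal was not well above background, and a fitted fall depends on how the background is handled: its median was -1.25 log2 units with the offset of 16, -0.71 with an offset of 50, -0.99 with median scaling and -2.80 without further background correction. A lower bound was therefore used, with each HuR KO IP array taken at the higher of its lowest detected signal and the signal of the probe. By this bound the 103 probes were at least 1.16- to 4.69-fold lower, with a median of 1.54-fold, and 16 were at least 2-fold lower. The bound follows the HuR WT IP level, so that these 16 are the 16 highest in the HuR WT IP.

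The rule limited this comparison strongly. Detection on every HuR KO nuclear array kept the nuclear fall of a probe from passing the distance between its HuR WT nuclear level and the lowest detected level of those arrays. For 71 of the 103 probes that distance was smaller than the bound in the IP, and a nuclear fall as large as the bound could not have been seen in a probe that met the rule. Whether the nuclear fall reaches the bound in the IP can thus be asked of 32 probes, among them all 8 called lower.

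Of these 32 probes, 11 had a measured nuclear fall as large as the bound, 4 of them among the 8 called lower and 7 among those not called. The other 21 had a smaller fall or none. The bound is the least fall in the IP, so a nuclear fall that reaches it can still be smaller than the loss. All 11 that reached it had a HuR WT IP level below their HuR WT nuclear level. The limits of detection fixed this for every one of the 32, so it says nothing about the 11. The 95% interval of the nuclear difference lay wholly beyond the bound for 2 probes, included it for 22, and lay wholly short of it for 8. For most of the 32, the arrays therefore do not separate a nuclear fall as large as the bound from a smaller one. The error of the bound is not part of these counts, and a high HuR WT nuclear level, which brings a probe into the 32, also enters the nuclear difference.

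**Figure D3:**
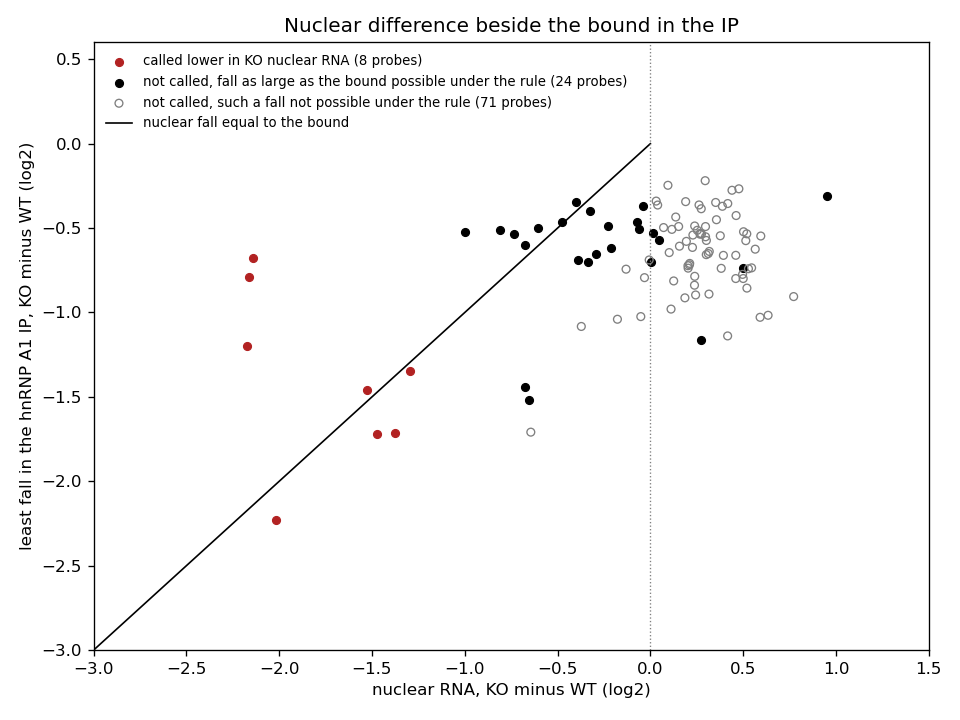
Log2 difference between HuR KO and HuR WT in nuclear RNA (horizontal) and the bound of the fall in the hnRNP A1 IP as a negative log2 value (vertical) for each of the 103 probes, with the 8 called lower in nuclear RNA in red and open circles for the 71 probes in which the rule left no room for a nuclear fall as large as the bound. The 11 probes at or left of the black line of equal fall are all among the other 32.

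Of the 16 probes whose bound passed 2-fold, 6 were called lower in nuclear RNA and 10 were not. For the 10 not called, the nuclear difference ran from -0.68 to 0.63 with a median of -0.11, and the bound in the IP from 2.02- to 3.27-fold. A nuclear fall as large as the bound was possible under the rule for 3 of the 10, and for all 3 the 95% interval lay short of it. The HuR KO nuclear arrays were all below the HuR WT arrays for 4 of the 10, all above for 4, and overlapping for 2, with 24.7% below and 25.7% above among all probes tested.

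ILMN_2435822, 1 of these 3, read 6.64 and 6.96 in HuR WT nuclear RNA and 6.99, 7.00 and 7.24 in HuR KO nuclear RNA, a difference of 0.27 (95% interval -0.27 to 0.82). Its IP arrays read 6.17, 6.78 and 6.93 in HuR WT and 5.37, 5.26 and 4.93 in HuR KO, at least 2.24-fold lower. The HuR KO nuclear arrays lay slightly above the HuR WT arrays, while the HuR KO IP arrays lay well below those of HuR WT, a direction the rule had chosen.

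ILMN_2671276, for which a nuclear fall as large as the bound was not possible under the rule, read 5.88 and 5.93 in HuR WT nuclear RNA and 6.56, 6.32 and 6.08 in HuR KO nuclear RNA, a difference of 0.42 (95% interval -0.02 to 0.85). In the IP it read 6.41, 6.74 and 6.66 in HuR WT and 4.66, 4.34 and 4.52 in HuR KO, at least 2.20-fold lower. It was also 1 of the 2 probes that met both stricter detection limits. The other of these 2 read 6.59 and 6.22 in HuR WT and 6.40, 6.37 and 6.29 in HuR KO nuclear RNA, with 6.30, 6.59 and 6.57 in the HuR WT IP and 4.54, 4.80 and 4.72 in the HuR KO IP.

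**Figure D4:**
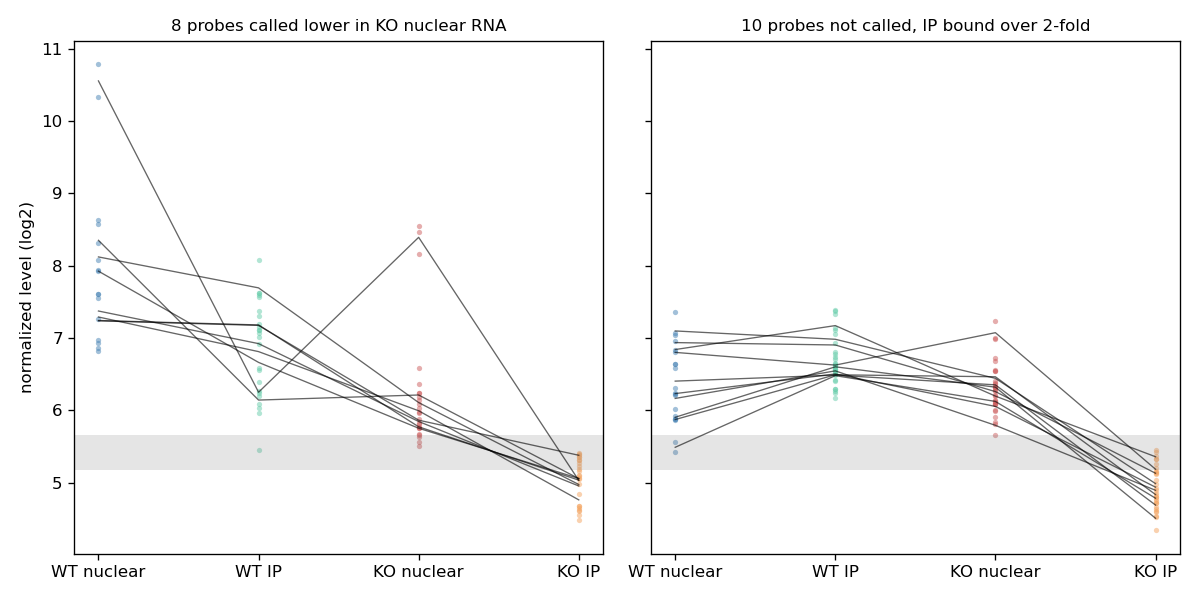
Normalized log2 level on each array (points) and group means (lines, 1 per probe) for the 8 probes called lower in HuR KO nuclear RNA (left) and the 10 not called whose bound in the IP passed 2-fold (right); the grey band spans the lowest detected signal of the 11 arrays. On the left the nuclear level falls by 1.30 to 2.17 log2 units from HuR WT to HuR KO, and on the right it changes by -0.68 to 0.63.

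Enrichment over nuclear RNA in HuR WT cells was considered last, since the rule demanded detection in both materials but did not set one against the other. In the HuR WT IP, 4 of the 103 probes were lower than in HuR WT nuclear RNA and none was higher (limma, adjusted p under 0.05 and over 2-fold), against 7.25% and 6.06% of all probes tested. The median difference was 0.32 log2 units, but quantile normalization within each fraction turned it to -0.045 and called 7 lower. Without the fold threshold 15 were higher, by 0.57 to 0.99 log2 units, and 5 lower, with a background of 13% for each direction. At an unadjusted p under 0.05, 34 were higher and 9 lower by limma, where 18.8% and 19.5% of all probes tested were. The methods' t-test gave 26 and 7 for the 103, again without its own share over all probes. Under some alternatives 1 or 2 were higher. The rule demanded detection on all arrays of both materials, which for dim probes limits how far the IP can lie below nuclear RNA and favours small positive differences, and no statement on enrichment is drawn from these counts. In HuR KO cells the IP lay below nuclear RNA by a median of 1.13 log2 units, as the rule fixed.

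The values of the opposite set are given beside these. Of the 88 probes detected in the HuR KO IP and not in the HuR WT IP, 24 (27.3%) were higher in HuR KO nuclear RNA. None was lower by limma, also at an unadjusted p under 0.05, and the median difference was 0.72. Of the 97 probes in no IP, 2 were lower and 2 higher (2.06% each), with a median of 0.22. The 103 had a median of 0.20 with 8 (7.77%) lower and none higher. Shares lower and higher were 6.35% and 5.48% among all probes tested. They were 3.85% and 5.12% among those detected on all 5 nuclear arrays. These sets were chosen from the same arrays, each with its own limits from detection, and no test was made between them.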

How the data were processed

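Per array, the authors deposited a probe intensity before normalization and its detection p-value. Deposited intensities lay below 0 for 31.6% to 36.5% of the probes of an array. Mean intensity was 165 to 347 per array, with 13737 to 16206 probes detected at 0.01. The detection column beside HuR KO nuclear replicate 3, which is headed as replicate 1, was taken by position. In R 4.3.3 with limma 3.58.1, intensities were background corrected from the detection p-values (normal-exponential model, offset 16), quantile normalized over 11 arrays and put on the log2 scale; the offset shrinks differences of dim probes. Probes were kept when all arrays of 1 group or more detected them, and 1 model of 4 group means was fitted (lmFit, eBayes) with Benjamini-Hochberg adjustment over all 16045. Fits were tested on simulated data. Alternatives included the methods' t-test, other background and scaling steps, stricter detection, left-out arrays and the replicate number as a block (statmod 1.5.0). The number of arrays limits the precision.

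The probes, the lists and the rule for those named were chosen with earlier results of these data known. Named are the brightest probes in the HuR WT IP, the largest falls among nuclear calls, and the brightest not called with a log2 difference within 0.5. Gene and marker lists were not used, as no file pairs probes with genes. BeadChip positions were not given.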

Additional observations from a re-analysis of the deposited data

How the results depend on the processing

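The median nuclear difference was 0.09 with median scaling and stayed above 0 in the other alternatives run, while the count of 8 nuclear falls depended on the test. The methods' t-test called 0 of the 103 lower (10 at an unadjusted p under 0.05), and neither ILMN_2597827 (-2.17) nor ILMN_1246153 (-2.16) was called by it. Without further background correction 4 were lower (5.85% of all probes tested were) and 2 higher in nuclear RNA, with ILMN_2597827 at -2.56 and not called. That setting gave 2 higher in the HuR WT IP and a median IP difference of -2.80. An offset of 50 left 2 lower in the HuR WT IP and an IP median of -0.71, and median scaling an IP median of -0.99. Quantile normalization within each fraction gave 7 lower in the HuR WT IP and turned its median to -0.045. Array weights, omitting the nuclear and IP arrays of HuR KO replicate 1, and the 8 arrays without the HuR KO IP (chosen after seeing the data) each gave 1 higher in the HuR WT IP. With no fold threshold 6 were higher in nuclear RNA and 15 in the HuR WT IP, and the t-test called 1 lower in the HuR WT IP.

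With absence from the HuR KO IP set at 0.05, 50 probes were left, of which 1 was lower in nuclear RNA and 0 in the HuR WT IP by limma. With presence set at 0.001, 7 were left, 0 lower in either, with an IP median of -1.77, and both limits left 2. Leaving out 1 array at a time gave 5 (without HuR WT nuclear replicate 1) to 9 nuclear falls, 0 to 2 rises (2 without HuR WT nuclear replicate 2), a nuclear median of 0.12 to 0.25, 3 to 7 lower in the HuR WT IP (7 without HuR WT nuclear replicate 2), 0 to 2 higher, a HuR WT IP median of 0.23 to 0.40, an IP median of -1.31 to -1.22 and 106 to 148 probes under the rule. The cause of these shifts was not tested.

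With the replicate number as a block, 8 probes were lower and 0 higher in nuclear RNA (median 0.21), and 5 lower and 0 higher in the HuR WT IP. Same-numbered nuclear arrays of HuR WT and HuR KO correlated at -0.07 in both pairs in their deviations from the group means, so the numbers do not pair them. Same-numbered nuclear and IP arrays of HuR KO, which by the methods share an extract, correlated at 0.69, 0.48 and 0.58, and those of HuR WT at -0.27 and 0.44. With the extract as a random block, 9 were lower in nuclear RNA and 6 in the HuR WT IP, and none was higher in either. At the level of these probes, 50 of the 103 were undetected in the HuR KO IP by the 0.05 limit, and differences there are measured only as bounds.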
